A study of Mus musculus with 2 samples.

Results

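Mucins and trefoil peptides, the glycoproteins and small secreted peptides of mucosal surfaces, were examined in mouse fallopian tube (oviduct) epithelial organoids with and without Trp53, the gene of the tumour suppressor p53. The members were 9 genes taken by symbol, 6 mucins (Muc1, Muc4, Muc5b, Muc13, Muc16 and Muc20) and 3 trefoil peptides (Tff1, Tff2 and Tff3), and all 9 were listed among the 25668 genes of both libraries. The groups were a Trp53 KO library and a WT control library, both labelled as grown in conditioned medium, with 1 library in each group. The control organoids came from a mouse of the B6J.129(B6N) background with the tm1(CAG-cas9*,-EGFP)Fezh allele at Gt(ROSA)26Sor. The allele name denotes a transgene of Cas9 and EGFP with the CAG promoter, and their expression in these organoids was not examined. The mouse behind the Trp53 KO organoids, the number of clones and animals, and the age of the animals are not stated in the labels. The study asked which changes loss of Trp53 function brings to this epithelium, and for the mucins that question is met by comparing the 2 libraries, with no replicate check and no test.

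Mucins are proteins with long stretches rich in serine and threonine, to which O-linked sugar chains are attached in the Golgi. Some are anchored in the apical membrane and form part of the glycocalyx, others are secreted and link into gels. Trefoil peptides are small, disulfide-folded proteins that are secreted with mucins in the stomach and intestine, where they are known for their part in mucosal repair. In the oviduct, secretory cells make most of the glycoproteins of the luminal fluid, beside multiciliated cells that move it.

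Values are TPM, which is scaled by gene length. Levels of different genes can be compared only as far as the gene lengths used are right, and the annotation behind those lengths is not named. Reads behind a value were recovered or estimated from the TPM steps, and summed to 27983274 in the Trp53 KO library and 101172563 in the control library. Each ratio carries a 95% interval (exact, Clopper-Pearson) for the counting error of these reads alone. Differences are on the log2(TPM + 1) scale, Trp53 KO minus control, and a gene was called higher or lower at 2-fold on that scale when its mean TPM was at least 1. The targeted gene Trp53 stood at 2.42 TPM in the Trp53 KO library, against 83.2 TPM in the control library.

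Among the 9 members, Muc5b, Muc1 and Muc20 were lower and Muc4 and Tff1 were higher in the Trp53 KO library. The summed level of the 6 mucins was 427 TPM in the Trp53 KO library, against 875 TPM in the control library. Muc1 made up 92.1% of that sum in the Trp53 KO library and 92.0% in the control library, and Muc20 made up 6.02% in the Trp53 KO library and 6.53% in the control library. In both libraries Muc1 had the highest level of the members, followed by Muc20. Next came Tff1 and then Muc4 in the Trp53 KO library, against Muc5b and then Muc4 in the control library. Below 1 TPM lay 5 members in the Trp53 KO library (Muc5b, Muc13, Muc16, Tff2 and Tff3), against 5 in the control library (Muc13, Muc16, Tff1, Tff2 and Tff3). In these bulk samples, fewer cells of a type and less RNA per cell cannot be told apart.

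**Figure D1:**
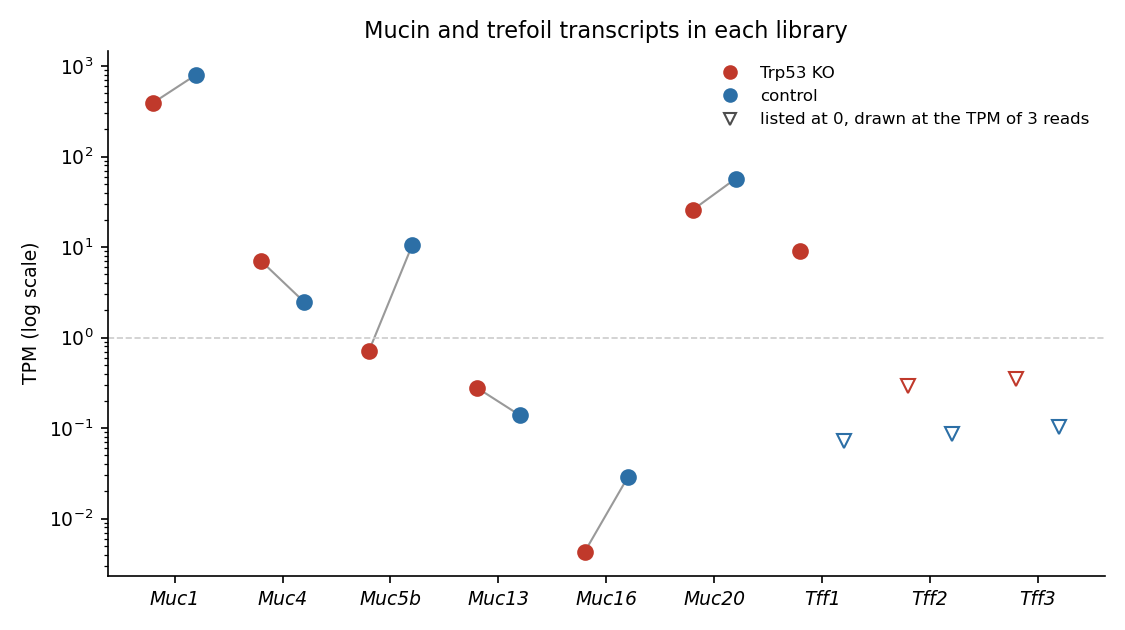
TPM of the 9 members on a log axis, with the Trp53 KO library (red) left of the control library (blue) for each gene. Open triangles mark genes listed at 0, drawn at the TPM that 3 reads would give, and the dashed line marks 1 TPM. The 6 mucins span 0.00429 to 393 TPM in the Trp53 KO library, against 0.0287 to 805 TPM in the control library.

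Muc1 encodes the transmembrane mucin that coats the apical surface of most secretory epithelia. It was 393 TPM in the Trp53 KO library and 805 TPM in the control library, from an estimated 15582 reads in the Trp53 KO library and 107417 in the control library. Among the genes above 0 it ranked 364 of 14066 in the Trp53 KO library and 189 of 16094 in the control library. The ratio was 0.488, with a counting interval of 0.480 to 0.496, so the level was lower by slightly more than the 2-fold limit. Its difference of −1.03 was −0.87 relative to the median of all genes, and after rescaling by the median ratio it was −0.86, inside 2-fold. The neighbours of Muc1 on chromosome 3 are Thbs3 and Trim46. Thbs3 was 3.97 TPM in the Trp53 KO library and 1.98 TPM in the control library, inside 2-fold on the log2(TPM + 1) scale. Trim46 was 0.805 TPM in the Trp53 KO library and 0.470 TPM in the control library, and was not called.

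Muc20, a short membrane mucin that in human cells is known to bind the receptor kinase MET, was 25.7 TPM in the Trp53 KO library, against 57.1 TPM in the control library. These levels came from 1829 recovered reads in the Trp53 KO library and 13695 in the control library. The ratio was 0.449 (counting interval 0.428 to 0.472), close to that of Muc1. The level of Muc1 was 15.3 times that of Muc20 in the Trp53 KO library and 14.1 times in the control library. The difference of Muc20 was −1.12, and −0.95 after rescaling by the median ratio, again inside 2-fold.

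Muc4 encodes a large membrane mucin whose transmembrane subunit carries EGF-like domains and is known to bind ErbB2. Its level was 7.03 TPM in the Trp53 KO library and 2.47 TPM in the control library. The ratio was 2.84 (counting interval 2.65 to 3.05). Muc4 was the 1 mucin of the 6 called higher. The level of Muc20 was 3.65 times that of Muc4 in the Trp53 KO library, against 23.1 times in the control library. The difference of 1.21 was 0.69 with a pseudocount of 5 TPM, inside 2-fold, and 1.35 after rescaling by the median ratio.

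Muc4 and Muc20 lie next to each other on chromosome 16, on opposite strands, with their 3′ ends overlapping. In GENCODE M21 they share 627 exonic bases, which is 5.33% of the exonic bases of Muc4 and 15.6% of those of Muc20. The libraries keep strand, but no label states whether the counting used it, so reads from the shared bases may not be assigned to one gene. Tnk2, a cytoplasmic tyrosine kinase gene and the nearest protein-coding neighbour of Muc4 on its other side, was 22.9 TPM in the Trp53 KO library and 10.5 TPM in the control library, also called higher. Smbd1, the neighbour of Muc20 on its other side, was 0.583 TPM in the Trp53 KO library and 0.668 TPM in the control library. The 358 measured genes of chromosome 16 had a median difference of −0.35, with 24 called higher (6.70%) and 60 lower (16.8%). Over all genes measured, 8.35% were called higher and 15.3% lower.

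The RefSeq promoter table (GRCm38.p6, an earlier build than the GRCm39 of the deposited values) held windows for 5 of the 9 members. The windows of the 3 cell-surface mucins above 1 TPM are shown because these genes differ in direction, each running from 250 bases before to 50 bases after the start site. Muc1 is at chr3:89228806-89229105 on the plus strand, Muc20 at chr16:32797386-32797685 on the minus strand and Muc4 at chr16:32735636-32735935 on the plus strand. Capitals mark matches, on either strand, to the motifs searched.
Muc1: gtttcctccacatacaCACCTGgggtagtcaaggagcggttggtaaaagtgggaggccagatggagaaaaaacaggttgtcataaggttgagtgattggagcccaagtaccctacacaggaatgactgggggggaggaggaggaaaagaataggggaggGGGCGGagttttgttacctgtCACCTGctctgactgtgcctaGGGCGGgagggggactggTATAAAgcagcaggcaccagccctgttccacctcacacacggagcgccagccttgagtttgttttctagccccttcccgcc
Muc20: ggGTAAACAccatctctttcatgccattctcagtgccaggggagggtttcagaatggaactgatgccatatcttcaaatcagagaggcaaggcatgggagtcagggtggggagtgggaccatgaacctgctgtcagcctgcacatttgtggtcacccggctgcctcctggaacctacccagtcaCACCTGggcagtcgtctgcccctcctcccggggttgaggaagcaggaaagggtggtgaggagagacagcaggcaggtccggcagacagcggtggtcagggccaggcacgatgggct
Muc4: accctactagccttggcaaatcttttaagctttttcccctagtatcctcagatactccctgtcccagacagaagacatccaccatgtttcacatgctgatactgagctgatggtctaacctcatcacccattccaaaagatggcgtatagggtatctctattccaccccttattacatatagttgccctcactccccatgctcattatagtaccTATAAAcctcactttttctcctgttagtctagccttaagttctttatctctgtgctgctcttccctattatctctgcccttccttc

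The motifs searched were the GC box GGGCGG, the TATA box TATAAA, the E-box CACCTG, the AP-1 site TGACTCA, the STAT site TTCNNNGAA, the forkhead site TGTTTAC and the p53 consensus decamer, and none overlapped another in these windows. The Muc1 window held the TATA box at −31, GC boxes at −91 and −49 and E-boxes at −234 and −70 from the start site. The Muc4 window held the TATA box at −36 and no other of these motifs. In the Muc20 window an E-box lay at −66 and a forkhead site, on the reverse strand, at −248. Of 32851 windows of 300 bases in the table, 35.7% held the GC box, 13.6% the TATA box, 20.2% this E-box and 3.65% the forkhead site. The AP-1, STAT and p53 letters, present in 5.20%, 8.30% and 8.36% of all windows, were not in these 3 windows.

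Muc13 and Muc16, both membrane mucins, were near the lower limit of these libraries. Muc13, best known from the intestine, was 0.279 TPM from 15 reads in the Trp53 KO library, against 0.138 TPM from 25 reads in the control library. Its ratio of 2.02 had a counting interval of 0.990 to 3.98, so a difference was not detectable at this depth. Muc16, which in human carries the tumour antigen CA125, was 0.00429 TPM from 2 reads in the Trp53 KO library and 0.0287 TPM from 45 reads in the control library. The ratio was 0.150, with an interval of 0.0176 to 0.573. Neither gene reached a mean of 1 TPM, and neither was called. Itgb5, a neighbour of Muc13, was called lower, at 26.0 TPM in the Trp53 KO library and 84.3 TPM in the control library. Heg1, on its other side, was 0.449 TPM in the Trp53 KO library and 0.793 TPM in the control library, and was not called. Of the neighbours of Muc16, Mbd3l1 was 0.130 TPM in the Trp53 KO library and listed at 0 in the control library. Olfr24 was listed at 0 in both. Msln, which encodes mesothelin, the known binding partner of MUC16 in human, was 232 TPM in the Trp53 KO library and 243 TPM in the control library (chosen after its values were seen).

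**Figure D2:**
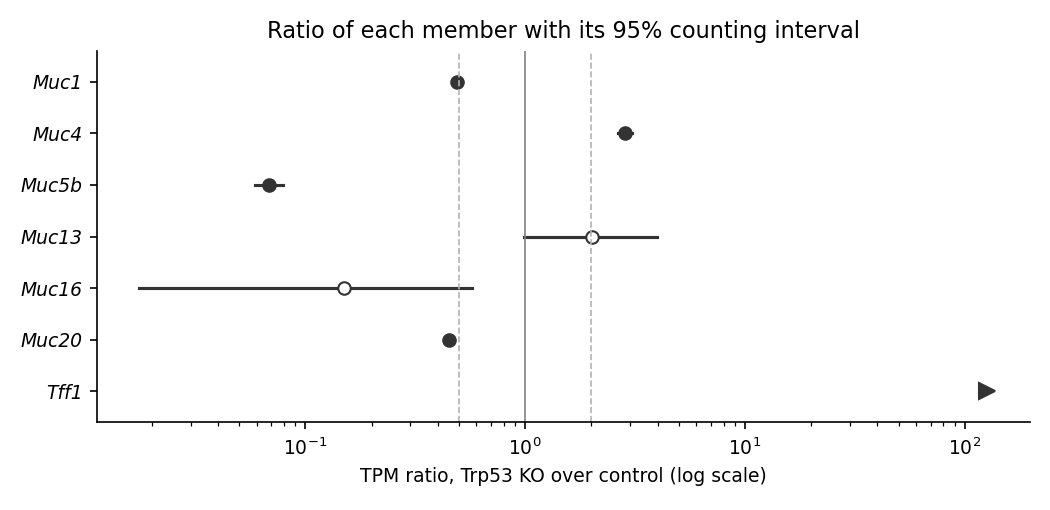
TPM ratio of the Trp53 KO library over the control library on a log axis, for the 7 members above 0 in at least 1 library. Bars are 95% counting intervals, open points have a mean below 1 TPM, the solid line marks equality and the dashed lines 2-fold. Muc5b lies farthest to the left among the filled points, at 0.0682. The arrow for Tff1 stands at 126.75, its ratio to a floor of 3 control reads, while its 95% interval begins lower, at 101.

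The gel-forming mucin Muc5b, a main polymer of airway mucus that is also made by the human endocervix, had the lowest ratio of the 4 mucins that averaged at least 1 TPM. It was 0.710 TPM from 188 reads in the Trp53 KO library, against 10.4 TPM from 9275 reads in the control library. The ratio was 0.0682, with a counting interval of 0.0587 to 0.0788, and the difference on the log2(TPM + 1) scale was −2.74. Muc5b was called lower under each of the 8 alternative settings. Among genes above 0 it ranked 10820 in the Trp53 KO library and 6524 in the control library.

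Muc5ac, the gel-forming mucin gene next to Muc5b on chromosome 7, was 0.0263 TPM from 5 reads in the Trp53 KO library and 1.02 TPM from 651 reads in the control library. Its ratio was 0.0258 with an interval of 0.00836 to 0.0606, although its mean was below 1 TPM and it was not called. Tollip, the neighbour on the other side and an adaptor of innate immune signalling, was 15.0 TPM in the Trp53 KO library and 27.2 TPM in the control library, inside 2-fold. The 828 measured genes of chromosome 7 had a median difference of −0.22. Muc2, the gel-forming mucin of the intestine, was listed at 0.00406 TPM in the Trp53 KO library and at 0 in the control library (chosen after its values were seen). Muc6 and Muc19, looked up by symbol, were not among the genes listed.

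Tff1, the trefoil peptide of the gastric surface epithelium, was detected in the Trp53 KO library alone. It was 9.09 TPM from 113 reads in the Trp53 KO library and was listed at 0 in the control library. The floor of 3 reads per library is 0.0717 TPM for this gene in the control library, and the level in the Trp53 KO library was 126.75 times that floor. This value leaves out the counting error of the 113 reads. The 95% counting interval of the ratio, which takes it in, began at 101-fold. Tff2, known from gastric mucous neck cells, and Tff3, known from intestinal goblet cells, were listed at 0 in both libraries. The floor allows up to 0.290 TPM of Tff2 in the Trp53 KO library and 0.0863 TPM in the control library. For Tff3 it allows up to 0.344 TPM in the Trp53 KO library and 0.102 TPM in the control library.

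The 3 trefoil genes are neighbours on chromosome 17, in the order Tff3, Tff2 and Tff1. Tmprss3, a membrane serine protease gene beyond Tff1, was listed at 0 TPM in the Trp53 KO library and at 0.00424 TPM, from 1 read, in the control library. Abcg1, a cholesterol transporter gene beyond Tff3, was 2.59 TPM from an estimated 267 reads in the Trp53 KO library and 0.209 TPM from an estimated 72 reads in the control library. Its ratio was 12.4, with an interval of 9.59 to 16.4. The genes called higher here, Tff1 and Abcg1, thus lie on either side of the trefoil genes listed at 0. Both passed the limit of 1 TPM through the Trp53 KO library alone. The 553 measured genes of chromosome 17 had a median difference of −0.22, with 26 called higher (4.70%) and 92 lower (16.6%). These shares stand beside 8.35% higher and 15.3% lower over all genes measured.

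Of the 9 members, 5 had a mean TPM of at least 1, of which 2 were called higher and 3 lower. Among all 11228 genes measured, 8.35% were called higher and 15.3% lower in the Trp53 KO library. Tff1 passed the limit of 1 TPM through the Trp53 KO library alone and Muc5b through the control library alone, so these counts describe the members and are not support for a direction. The median difference of the 5 was −1.03 and that of all 9 members was 0.00, beside −0.17 over all genes measured. Over all genes 937 were called higher and 1715 lower, and quantile normalization gave 1292 higher and 1321 lower. The sign of the difference of each called member stayed the same under the 3 rescalings. A pseudocount cannot change a sign, and Tff1, at 0 in the control library, could not change sign under any setting.

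**Figure D3:**
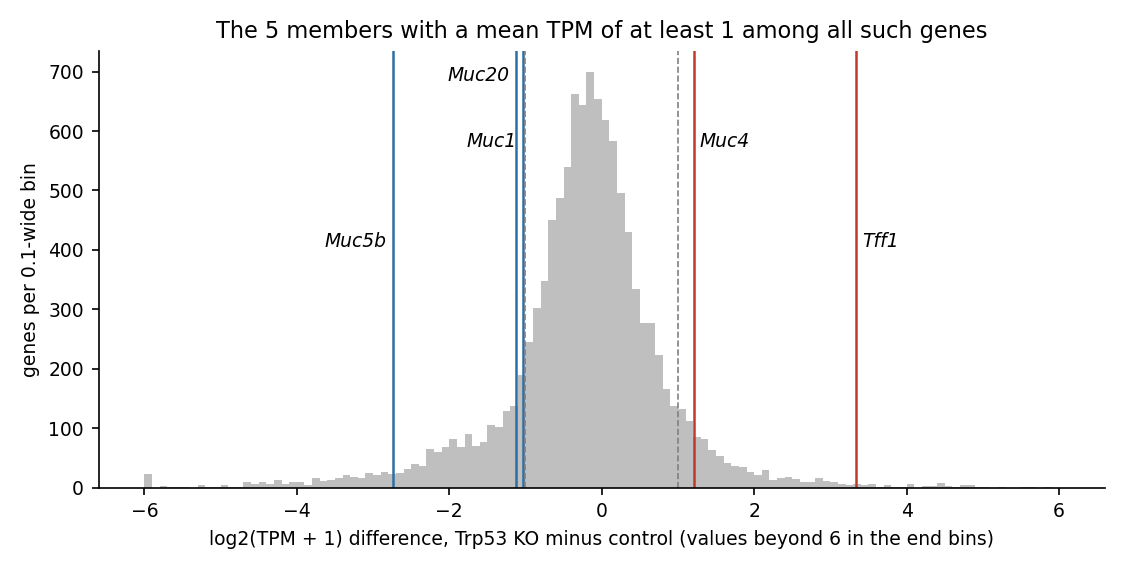
Number of genes by log2(TPM + 1) difference, Trp53 KO minus control, for the 11228 genes that averaged at least 1 TPM. Vertical lines mark the 5 members among them and dashed lines mark 2-fold. Muc1 at −1.03 and Muc20 at −1.12 lie just beyond the lower dashed line, Muc4 at 1.21 just beyond the upper one, and Muc5b at −2.74 and Tff1 at 3.33 lie well outside.

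Counts of called genes in the lists that follow stand beside the same 8.35% higher and 15.3% lower over all genes, and no test of a list was made. Genes below 1 TPM in one library, such as Galnt6, B4galt4 and Creb3l1, passed the limit of 1 TPM through the other library alone. Other genes with mucin-like domains were mostly low. Of 10 listed in a set of further cell-surface and mucin-like genes, 3 had a mean of at least 1 TPM, with 0 called higher and 2 called lower. The lower ones were Podxl, podocalyxin, a sialomucin of the apical membrane, at 5.59 TPM in the Trp53 KO library and 30.0 TPM in the control library, and Cd24a. Cd24a, a small mucin-like surface protein, was 838 TPM in the Trp53 KO library and 2015 TPM in the control library. The membrane mucin genes Muc3 and Muc3a were listed at 0 in both libraries, Muc15 was listed at 0 in the Trp53 KO library and at 0.00941 TPM in the control library, and Muc21 was 0.281 TPM in the Trp53 KO library and listed at 0 in the control library (these 4 chosen after their values were seen).

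Enzymes that begin mucin O-glycans differed in both directions. The Galnt genes encode transferases that attach the first sugar to serine or threonine, and of 10 measured, 2 were called higher and 4 lower. Galnt6 had the largest difference of the list, at 22.6 TPM in the Trp53 KO library and 0.0955 TPM in the control library. Its ratio of 236.9 had a counting interval of 156 to 379. Galnt11, Galnt10 and Galnt7 were 3.17, 1.32 and 18.7 TPM in the Trp53 KO library, against 11.7, 5.13 and 48.7 TPM in the control library. The others called were Galnt12, at 17.3 TPM in the Trp53 KO library and 7.51 TPM in the control library, and Galntl6, at 0.336 TPM in the Trp53 KO library and 1.82 TPM in the control library, both chosen after their values were seen. The summed level of all 17 listed was 164 TPM in the Trp53 KO library, against 150.2 TPM in the control library. The list median was −0.25, and 0.19 with a mean TPM of at least 5, so the list had no single direction.

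Among 17 measured enzymes listed for extending, branching or capping sugar chains, 3 were called higher and 5 lower, beside 8.35% higher and 15.3% lower over all genes. Their action on mucins, as against other glycoproteins and glycolipids, was not measured. The list median was −0.12 and became 0.05 after rescaling by the median ratio. Gcnt1, which makes the core 2 branch, was 44.3 TPM in the Trp53 KO library and 14.4 TPM in the control library. B3gnt7, a transferase of N-acetylglucosamine, was 13.4 TPM in the Trp53 KO library and 2.54 TPM in the control library. Lower were St6gal1, a sialyltransferase, at 4.47 TPM in the Trp53 KO library against 37.2 TPM in the control library, and B4galt4, a galactosyltransferase. B4galt4 was 0.0611 TPM from an estimated 2 reads in the Trp53 KO library and 10.8 TPM in the control library, with a ratio of 0.00567 (interval 0.000551 to 0.0165). Under that rescaling 5 were called higher and 4 lower.

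In the mucous cell secretory pathway, 2 of 18 measured genes were called higher and 7 lower in the Trp53 KO library, beside 8.35% higher and 15.3% lower over all genes. The median was −0.66 over these 18 and −0.07 over all 30 listed, beside −0.17 over all genes measured. Spdef, the transcription factor that drives goblet cell maturation, was 6.17 TPM in the Trp53 KO library and 35.6 TPM in the control library. Creb3l1, a membrane-bound transcription factor of secretory cells, was 0.282 TPM from 13 reads in the Trp53 KO library and 22.9 TPM in the control library. Agr2, a disulfide isomerase needed for folding intestinal Muc2 in mouse, was 1.87 TPM in the Trp53 KO library and 16.7 TPM in the control library. Kcnn4, a calcium-activated potassium channel gene, was 66.3 TPM in the Trp53 KO library and 3.64 TPM in the control library. The other gene called higher was Foxa1, a pioneer transcription factor chosen here with its values known, at 5.79 TPM in the Trp53 KO library and 0.384 TPM in the control library. With a pseudocount of 5 TPM, 3 genes of this list were lower and 2 higher.

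**Figure D4:**
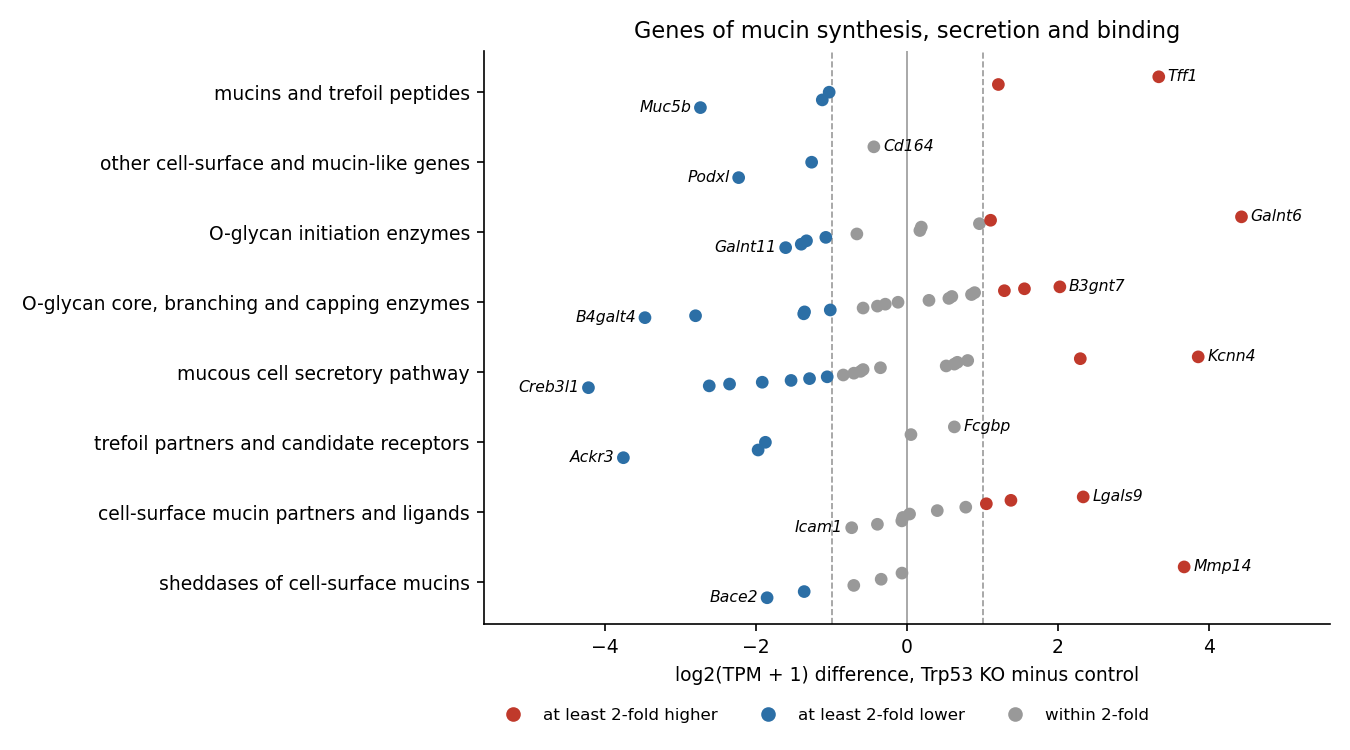
Log2(TPM + 1) difference, Trp53 KO minus control, of each gene averaging at least 1 TPM in the mucin and trefoil genes and 7 lists around them, with the lowest and highest gene of each list named. Red points are at least 2-fold higher, blue points at least 2-fold lower and grey points inside the dashed 2-fold lines. Creb3l1 at −4.22 and Galnt6 at 4.43 are the outermost points.

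Genes whose products are known to act with trefoil peptides, or are candidate receptors for them, had 0 of 5 measured called higher and 3 called lower, beside 8.35% and 15.3% over all genes. All 3 passed the limit of 1 TPM through the control library alone. Ackr3, an atypical chemokine receptor, was 0.0507 TPM from 3 reads in the Trp53 KO library and 13.2 TPM from 2636 reads in the control library, giving a ratio of 0.00383 (interval 0.000789 to 0.0112). Dmbt1, a secreted mucosal glycoprotein, was 0.0338 TPM in the Trp53 KO library and 3.06 TPM in the control library, and Gkn3, a gastrokine, was 0.132 TPM from 2 reads in the Trp53 KO library and 3.16 TPM from 161 reads in the control library, a ratio of 0.0418 (interval 0.00502 to 0.153). The gastrokines Gkn1 and Gkn2 were listed at 0 in both libraries, and Gkn2 is known to pair with TFF1 in human (both chosen after their values were seen). With a pseudocount of 5 TPM, 1 gene of this list was lower.

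Of 10 measured partners and ligands of membrane mucins, 3 were called higher and 0 lower. Lgals3 and Lgals9 encode galectins, which bind sugars on mucins. Lgals3 was 289 TPM in the Trp53 KO library and 111 TPM in the control library, and Lgals9 was 55.7 TPM in the Trp53 KO library and 10.2 TPM in the control library. Egfr, the EGF receptor, was 4.95 TPM in the Trp53 KO library and 1.87 TPM in the control library. Erbb2, the partner of Muc4, was 20.4 TPM in the Trp53 KO library and 19.9 TPM in the control library, and Met was 17.6 TPM in the Trp53 KO library and 18.4 TPM in the control library (both chosen after their values were seen). Of 6 measured proteases that can release membrane proteins or mucins from the surface, 1 was called higher and 2 lower. Mmp14 was 54.5 TPM in the Trp53 KO library and 3.36 TPM in the control library, Bace2 was 15.7 TPM in the Trp53 KO library and 59.3 TPM in the control library, and Adam9 was 44.0 TPM in the Trp53 KO library and 115 TPM in the control library.

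Markers of oviduct cell types also differed between the libraries. Of 9 measured epithelial and secretory cell markers 0 were called higher and 3 lower. Their summed levels were 6024 TPM in the Trp53 KO library and 7135 TPM in the control library. Most of both sums came from the epithelial keratins Krt18, Krt8 and Krt7, named for this reason. These keratins were 2317, 1554 and 1167 TPM in the Trp53 KO library and 3144, 1984 and 877 TPM in the control library. The sums therefore say little about the secretory markers. Called lower were Ovgp1, Wt1 and Sox17. They were 0.192, 7.85 and 22.5 TPM in the Trp53 KO library and 7.44, 35.3 and 86.5 TPM in the control library. Pax8, the secretory lineage factor, and Epcam, an epithelial adhesion gene, were 46.0 and 697 TPM in the Trp53 KO library and 44.8 and 713 TPM in the control library (both chosen after their values were seen). All 9 measured multiciliated cell markers were called lower, of 14 listed. Summed levels of the list were 72.0 TPM in the Trp53 KO library and 312 TPM in the control library. Ccno, Mcidas, Tppp3, Ccdc153 and Dynlrb2, named for this reason, passed the limit of 1 TPM through the control library alone. In the Trp53 KO library 7 of these 14 were listed at 0, against 0 in the control library. Basal and squamous cell markers were called higher for 10 of 11 measured, with 0 lower. Their summed levels were 6867 TPM in the Trp53 KO library and 124 TPM in the control library. Trp63, Krt5, Krt14, Krt6a, Krt16 and Dsg3, named for this reason, passed the limit of 1 TPM through the Trp53 KO library alone. The counts of both lists therefore describe these markers and are not support for a direction. The part of these cell states in the mucin and trefoil differences was not tested.

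A list of hormone-regulated genes of the reproductive tract held secretory genes and the hormone receptor genes Pgr and Esr1. Of 7 measured, 1 was called higher and 5 lower. Summed levels were 8058 TPM in the Trp53 KO library and 37002 TPM in the control library. The largest part of both sums was Ltf, called lower, at 5498 TPM in the Trp53 KO library and 18507 TPM in the control library. Pgr was also called lower and Esr1 was inside 2-fold (Ltf, Pgr and Esr1 chosen after their values were seen). The lower ones included C3, Pigr and Lcn2 at 124, 64.6 and 2342 TPM in the Trp53 KO library and 2231, 556 and 15660 TPM in the control library. The higher one was Areg, an EGF receptor ligand, at 7.03 TPM in the Trp53 KO library and 0.802 TPM in the control library.

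Of the lists for tissues outside the oviduct epithelium, those of gastrointestinal, stromal and endothelial cells were low, whereas single genes of the mesothelial and immune lists were not. None of 10 gastrointestinal markers reached 1 TPM in either library, with summed levels of 0.297 TPM in the Trp53 KO library and 0.579 TPM in the control library, and Cdx1, Gkn1, Gkn2 and Fabp1, named for this reason, were listed at 0 in both. Tff1 was 9.09 TPM in the Trp53 KO library, where the highest of these markers was 0.116 TPM. The 9 stromal and smooth muscle markers summed to 0 TPM in the Trp53 KO library and 0.111 TPM in the control library, and the 6 endothelial markers to 0.0674 TPM in the Trp53 KO library and 0.181 TPM in the control library. The 8 immune markers summed to 16.4 TPM in the Trp53 KO library and 34.4 TPM in the control library, of which Cd68, a lysosomal gene, made up 16.0 TPM in the Trp53 KO library and 25.5 TPM in the control library. Ptprc, the leukocyte antigen CD45, was 0.0110 TPM in the Trp53 KO library and 0.0886 TPM in the control library (Cd68 and Ptprc chosen after their values were seen). Csf1r, the 1 immune marker called lower, was 0.420 TPM in the Trp53 KO library and 8.78 TPM in the control library. Of 7 mesothelial markers 3 were measured, 0 called higher and 1, Wt1, lower, with summed levels of 242 TPM in the Trp53 KO library and 279.8 TPM in the control library, most of it from Msln.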

How the data were processed

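RNA was measured in 1 Trp53 KO and 1 control library of organoids, from total RNA with a strand-preserving NEBNext Ultra II Directional kit, per the labels' protocols. The authors deposited TPM, 1 value per gene symbol and library, and used genome build GRCm39 according to the submitters' processing notes. No label or header names the aligner, counting tool, strand setting or annotation. TPM keeps no depth, so reads were taken from the step of low values, 0.0565 TPM per read at 1000 bases in the Trp53 KO library and 0.0168 TPM in the control library. Gene length was the GENCODE M21 exon union, or else the longest protein-coding transcript, whichever gave read numbers within 0.02 of whole numbers in both libraries. Of 10272 genes with over 50 reads in both, 41.6% were whole, where chance gives 0.320%, and the genes used to find the step are among them. For other genes, Muc1 and Muc4 among them, reads are estimates that assume the longest protein-coding transcript. PCR reads without molecular identifiers are not separate molecules, so intervals and the floor of 3 reads measure counting error alone.

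Differences use log2(TPM + 1), which understates changes of low genes, at a mean TPM of at least 1 and a 2-fold limit. With 1 library in each group no test was possible and each difference compares 2 libraries. The members and lists were chosen with earlier results of these data known. Named genes are the members, Trp53, their nearest protein-coding neighbours and up to 4 genes of each list past 2-fold with the largest differences. Others were chosen after their values were seen and are marked where they are named. Multigene relatives such as Galnt genes, Cd24a and the keratins may share reads. Alternatives were pseudocounts of 0.1 and 5 TPM, no filter or a mean of at least 5 TPM, 3 rescalings and a 4-fold limit. Gene order, chromosomes and promoters came from RefSeq GRCm38.p6, an earlier build. Python 3.11.15, pandas 2.3.3 and scipy 1.17.1 were used.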

Additional observations from a re-analysis of the deposited data

How the results depend on the processing

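With 1 library in each group, no alternative measures the spread between organoid cultures. Of the 2 higher members, 1 (Tff1) was still at least 2-fold higher with a pseudocount of 5 TPM, 0 with a mean TPM of at least 5, because Muc4 and Tff1 then failed the filter, and 1 (Tff1) at a 4-fold limit. Of the 3 lower members, 1 (Muc5b) was still at least 2-fold lower after rescaling by the median ratio and 1 (Muc5b) at a 4-fold limit. Muc1 and Muc20 were then −0.86 and −0.95 by median-ratio rescaling, which set the median of all genes to −0.01. The counts of members were the same under the other alternatives. Over all genes, a pseudocount of 5 TPM gave 563 higher and 930 lower, a mean TPM of at least 5 gave 1091 lower, and the 4-fold limit gave 267 higher and 661 lower. Of the recomputed differences of called members, 0 reversed sign. Only the 3 rescalings could have changed a sign, and only for Muc1, Muc4, Muc5b and Muc20. Muc5b ran from −3.70 to −1.43, Tff1 from 1.49 to 6.52, Muc4 from 0.69 to 1.55, Muc1 from −1.11 to −0.86 and Muc20 from −1.15 to −0.95. Muc16, not called, was −0.03 and became 0.02 by quantile normalization. No paired analysis was possible because each group has 1 library. Depth limits Muc13 and Muc16, with 15 and 2 reads in the Trp53 KO library.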
